A study of Mus musculus with 6 samples.

Results

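Homologous recombination repairs a broken chromosome by copying an intact sister, so cells use it mostly during and after DNA replication, when a sister chromatid is present. BRCA1, PALB2 and BRCA2 act at the resected ends, where a protein filament forms on the single strand. A family of related proteins, among them RAD51B, RAD51C, RAD51D and XRCC2, stabilises the filament, and RAD54 helps it invade the intact duplex. RAD52 anneals single strands that RPA covers, the step on which single-strand annealing depends, and it provides a second route to recombination in cells that lack BRCA2. In the embryonic brain these genes are best known from the dividing progenitors of the ventricular zone, where loss of several of them leads to cell death.

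The 9 genes described here are Rad52, the filament-stabilising genes Rad51b, Rad51c, Rad51d and Xrcc2, the motor gene Rad54l, and Brca1, Palb2 and Brca2, out of 24848 genes in the deposited tables. They were looked up by symbol. Rad52 was selected on its low level in the knockout in these same libraries, and the other 8 were named around it for their function. The values of Rad52 in knockout against wild type are therefore given as a description, with no test. All 9 were among the 15848 genes expressed highly enough to be tested.

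The samples are dissected brains of mouse embryos at stage E14.5, 3 wild type (WT 1 to WT 3) and 3 E4f1 knockout (KO 1 to KO 3), each profiled by paired-end mRNA sequencing with a stranded kit. E4F1 is a DNA-binding regulator of transcription with zinc fingers. By its title, the study concerns the part of E4F1 in pyruvate metabolism and in the activity of Elongator, a complex that modifies tRNA, during brain development. The labels give the knockout as E4f1 KO alone and do not describe the allele, a Cre driver, the strain, the sex or the litters. Each brain has its own animal number, and whether the brains of a group came from separate litters is not stated, so p-values measure the spread between these samples only.

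Expected counts, the read pairs that the counting program assigned to genes, summed to between 42113465 (WT 2) and 74064707 (WT 1) per library. E4f1 itself stood between 20.7 and 21.6 CPM in WT and between 6.92 and 7.12 CPM in KO (log2 fold change -1.60 ± 0.08, SE, n = 3 per group, edgeR adjusted p = 0.00142), where CPM is the count scaled to a common library size. Neuronal markers summed to between 5419 and 8627 CPM over 10 genes, and among 8 liver genes Alb reached at most 0.0243 CPM and Afp 0.448 CPM, while Ttr, which the choroid plexus also makes, stood between 160.0 and 371 CPM. The brains differed in the levels of regional and tissue markers, and the part of dissection in this was not tested. Summed midbrain markers (8 genes) ranged from 32.9 to 195 CPM in WT and from 18.2 to 47.4 CPM in KO, and meningeal and mesenchymal markers (8 genes) from 589 to 2706 CPM in WT and from 472 to 5288 CPM in KO, with KO 3 the highest. Otx2 alone gave 20.7, 29.9 and 13.4 CPM of the midbrain sums in KO 1 to 3. All 8 midbrain genes had negative log2 fold changes, KO minus WT (median -2.62). By edgeR 0 of them were called and 3 were lower at an unadjusted p below 0.05, against 1.0% and 19.6% of all tested genes.

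The promoter of Rad52 is shown first because Rad52 is the gene from which the choice of this group started, and because E4F1 is known to bind sites built on TGACGT, a core it shares with the ATF and CREB factors. RefSeq promoter windows (GRCm38.p6, 250 bases before to 50 after a transcript start) were at hand for 7 of the 9 genes. Only the part before the start is printed, on the strand of the gene, with TGACGT, TGACGTAA or TGACGTCA on either strand in capitals. The Rad52 stretch lies on the plus strand at chr6:119902448-119902697. It ends where the first GENCODE transcript of Rad52 starts (119902698), which is 976 bases inside the RefSeq gene span given below. Sequence before this stretch was not searched, whether inside that span or before its start.

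Rad52: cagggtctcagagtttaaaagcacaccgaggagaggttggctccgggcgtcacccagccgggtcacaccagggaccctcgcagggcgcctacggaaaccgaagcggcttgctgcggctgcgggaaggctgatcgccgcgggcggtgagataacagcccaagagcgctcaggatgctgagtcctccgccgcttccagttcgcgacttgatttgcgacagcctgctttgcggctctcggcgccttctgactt

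This stretch holds no capitals: none of the 3 motifs was found in the Rad52 window, which was 61.7% G and C with 26 CpG sites. The lack of a match says only that these letters are not in this window. Matches were found in 3 other genes of the group, which are shown for comparison with the bases around each match before the start: Rad51c (minus strand, chr11:87404522-87404571, match starting 45 bases before the start), Brca1 (minus strand, chr11:101552124-101552173, 198 bases before, and chr11:101551956-101551994, 19 bases before) and Brca2 (plus strand, chr5:150522581-150522620, 20 bases before). The Rad51c and Brca2 matches lie before the transcript start of their window but inside the RefSeq gene span. The Rad51c span runs up to 87404954 and the Brca2 span begins at 150522297.

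Rad51c: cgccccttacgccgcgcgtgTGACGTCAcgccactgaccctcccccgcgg

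Brca1, far match: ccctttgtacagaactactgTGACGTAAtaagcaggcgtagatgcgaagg

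Brca1, near match: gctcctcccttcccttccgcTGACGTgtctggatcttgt

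Brca2: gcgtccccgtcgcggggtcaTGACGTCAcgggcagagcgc

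TGACGTCA reads the same on both strands and contains TGACGT on each, and TGACGTAA contains TGACGT. The first Rad51c window held another TGACGT, on the opposite strand, from base 30 after the start, which is not printed. Of all 32851 promoter windows of this length in the table, 7.51% held TGACGT, 1.79% held TGACGTCA and 0.499% held TGACGTAA on either strand. In the 15547 windows of tested genes the shares were 10.5%, 2.86% and 0.753%. A match is a stretch of letters and no evidence of binding. Rad51b, Rad54l and Palb2 held none of the motifs, and the second Rad51c window held none either. Rad51d and Xrcc2 had no window. The 3 genes with a match had positive fold changes, given below with their errors, and none of the 3 was called. The same held for the genes without a match or without a window, apart from Rad52.

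Rad52 (chromosome 6, 119901722 to 119922827, GRCm38) was counted with 631, 334 and 532 read pairs in WT 1 to 3 and with 46, 36 and 60 in KO 1 to 3. Its level was 8.47, 8.12 and 8.001 CPM in the WT libraries and 0.644, 0.631 and 1.18 CPM in the KO libraries. The WT brains lay within 1.06 times of each other and far above every KO brain, and KO 3 stood 1.86 times above KO 2. The mean was 8.20 ± 0.244 CPM in WT and 0.817 ± 0.311 CPM in KO (SD, n = 3 each), a KO level of 0.0992 of WT (log2 fold change -3.33 ± 0.28, SE). E4f1 stood at 6.92 CPM in KO 3, against 7.12 and 7.01 CPM in KO 1 and KO 2. Its part in the Rad52 level of KO 3 was not tested. The meningeal and mesenchymal markers were highest in KO 3, and their part in its Rad52 level was not tested. In bulk tissue, fewer cells of a type and less RNA per cell cannot be told apart, for this and every value below.

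**Figure D1:**
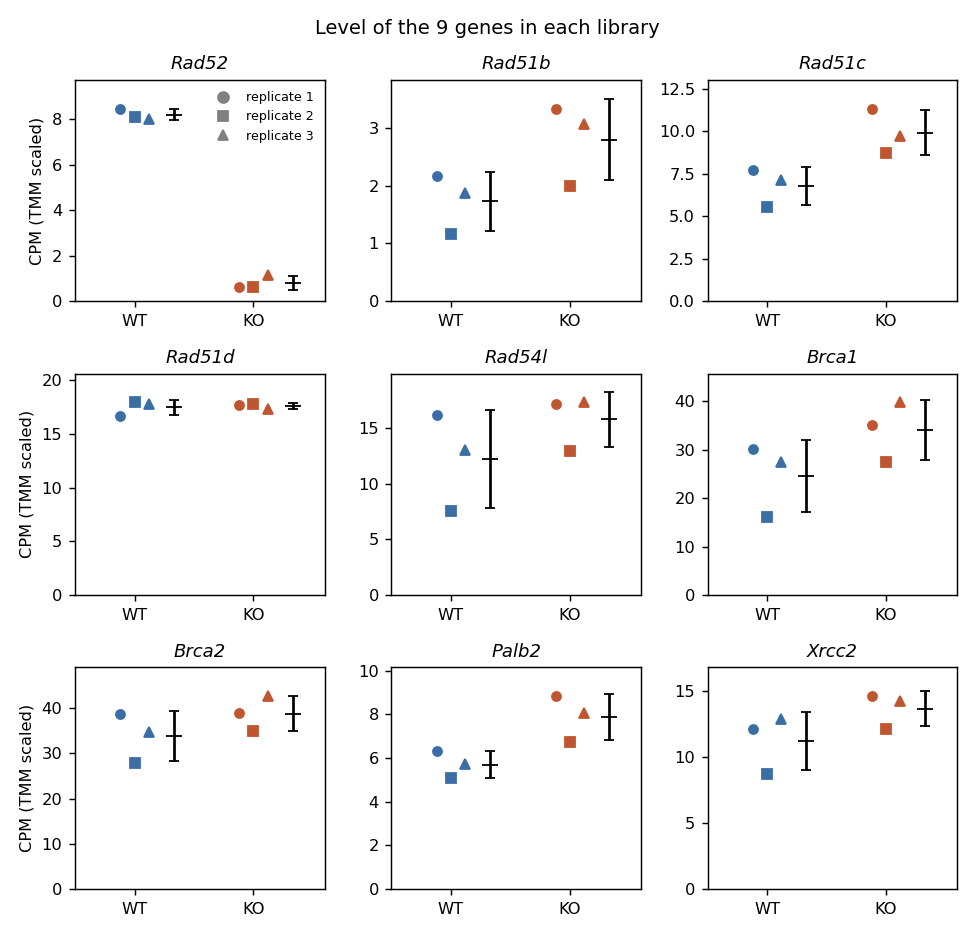
Level of each of the 9 genes in CPM (linear axis from 0) in the 3 WT (blue) and 3 KO (orange) libraries, with one symbol per replicate number and the mean ± SD beside each group. Rad52 lies between 8.001 and 8.47 CPM in WT and between 0.631 and 1.18 CPM in KO, and WT 2 (blue square) is the lowest library for all genes but Rad52 and Rad51d.

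The genes next to Rad52 gave different values. Wnk1, a kinase that controls ion transport, ends 1141 bases beyond Rad52 in the opposite orientation, and went from a mean of 355.7 CPM in WT to 359.6 CPM in KO (log2 fold change 0.02 ± 0.07, edgeR adjusted p = 0.914). The nearest tested gene on the other side, the long noncoding RNA 3110021A11Rik at a distance of 52692 bases, had means of 0.977 and 0.901 CPM (-0.10 ± 0.38, adjusted p = 0.902). GENCODE exons of other genes did not overlap those of Rad52.

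Per transcript length, measured as TPM, a unit that corrects for length, Rad52 stood at opposite ends of the group in WT and KO. It had the highest TPM of the 9 genes in 3 of 3 WT libraries and the lowest in 3 of 3 KO libraries. Its TPM was 15.1, 14.6 and 14.4 in WT 1 to 3 and 1.14, 1.12 and 2.03 in KO 1 to 3. In WT the order of the mean TPM (± SD, n = 3) was Rad52 (14.7 ± 0.395), Rad54l (11.3 ± 4.09), Brca1 (9.62 ± 2.91), Xrcc2 (9.43 ± 1.82), Rad51d (8.82 ± 0.143), Brca2 (7.93 ± 1.26), Rad51c (6.25 ± 1.01), Palb2 (4.19 ± 0.486) and Rad51b (2.67 ± 0.778). Of the 8 pairs of neighbours in this order, 6 overlapped in their libraries, and the 2 that did not were Rad51c above Palb2 and Palb2 above Rad51b. Rad54l reached 15.0 TPM in WT 1, so Rad52 and Rad54l overlapped across WT libraries. In KO the order of the mean TPM was Rad54l (14.497 ± 2.16), Brca1 (13.1 ± 2.27), Xrcc2 (11.3 ± 1.11), Rad51d (9.18 ± 0.380), Rad51c (8.997 ± 1.26), Brca2 (8.94 ± 0.796), Palb2 (5.70 ± 0.665), Rad51b (4.24 ± 1.07) and Rad52 (1.43 ± 0.520). Here 3 neighbouring pairs did not overlap: Xrcc2 above Rad51d, Brca2 above Palb2, and Rad51b above Rad52.

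**Figure D2:**
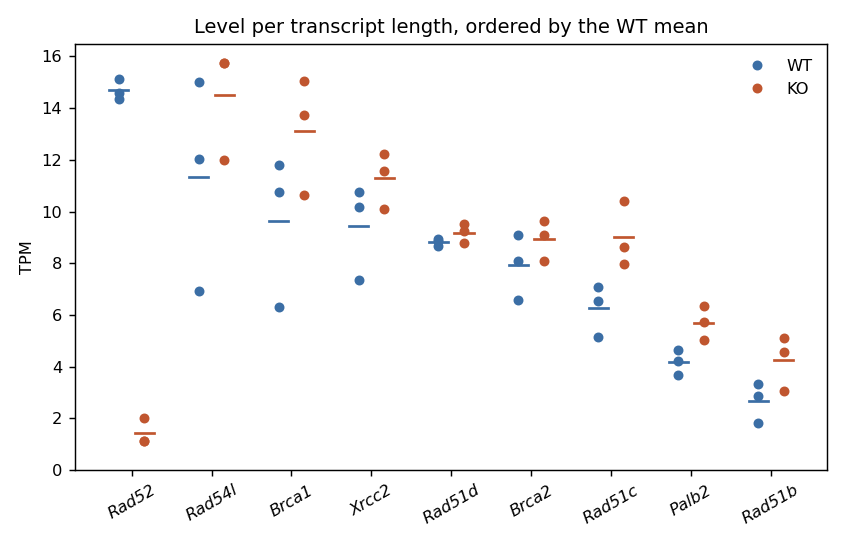
TPM (linear axis from 0) of the 9 genes in each WT (blue) and KO (orange) library, ordered by the WT mean, with a line at each group's mean. Rad52 is the highest gene in WT (14.7 TPM) and the lowest in KO (1.43 TPM), while the other 8 genes keep a KO mean at or above their WT mean.

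None of the other 8 genes was called at an edgeR adjusted p below 0.05, against 1.0% of all 15848 tested genes (0.492% lower and 0.511% higher in KO). At an unadjusted p below 0.05 there were 2 of 8, both higher in KO, against 19.6% of all tested genes. DESeq2, which called 8.87% of the genes it gave an adjusted p, called none of the 8, and neither did limma. Each of the 8 had a positive log2 fold change, and their median was 0.42 against -0.00077 over all tested genes. That median was 0.19 without WT 2, the library with the lowest level of 7 of the 8 genes. The CPM of WT and KO did not overlap in 2 of the 8, against 27.6% of all tested genes.

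Rad51c (chromosome 11, 87376645 to 87404954), which acts in both complexes of its family, stood at 7.69, 5.55 and 7.13 CPM in WT 1 to 3 and at 11.3, 8.74 and 9.70 CPM in KO 1 to 3. Every KO brain lay above every WT brain. Its log2 fold change was 0.55 ± 0.17 (95% interval 0.13 to 0.96, edgeR adjusted p = 0.172). DESeq2 gave the smallest adjusted p of the alternatives, 0.0589, and none of the 18 alternatives called it (largest 0.541).

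Palb2 (chromosome 7, 122107262 to 122132980), the bridge between BRCA1 and BRCA2, was the other gene without overlap. It stood at 6.30, 5.06 and 5.70 CPM in WT 1 to 3 and at 8.83, 6.73 and 8.05 CPM in KO 1 to 3. Its log2 fold change was 0.47 ± 0.16 (95% interval 0.09 to 0.85, adjusted p = 0.191 by edgeR). In GENCODE, 414 exon bases of Palb2 overlap the pseudogene Gm16326 on the opposite strand, which was not among the tested genes.

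Rad51b (chromosome 12, 79297282 to 79848260), a member of the complex with RAD51C, RAD51D and XRCC2, was the lowest gene in WT and rested on 48 to 161 read pairs there. It stood at 2.16, 1.17 and 1.86 CPM in WT 1 to 3 and at 3.33, 1.997 and 3.06 CPM in KO 1 to 3. KO 2 lay below WT 1, so the groups overlapped. The log2 fold change of 0.68 ± 0.31 was the largest of the 8 and the least precise (95% interval -0.07 to 1.43, edgeR adjusted p = 0.288).

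Xrcc2 (chromosome 5, 25689814 to 25705797), of the same complex, stood at 12.1, 8.71 and 12.8 CPM in WT 1 to 3 and at 14.6, 12.1 and 14.2 CPM in KO 1 to 3, and the groups overlapped between KO 2 and WT 3. Its log2 fold change was 0.28 ± 0.17 (95% interval -0.13 to 0.69, edgeR adjusted p = 0.397), and 0.13 ± 0.12 without WT 2.

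Rad51d (chromosome 11, 82871960 to 82890624), the link between RAD51C and XRCC2, had the narrowest range of the 9 genes over all 6 libraries, though within WT Rad52 varied less (1.06 times against 1.08 times). It stood at 16.7, 17.9 and 17.8 CPM in WT 1 to 3 and at 17.7, 17.8 and 17.3 CPM in KO 1 to 3. The log2 fold change was 0.01 ± 0.08, and its 95% interval, -0.18 to 0.20, leaves room for small differences in either direction (edgeR adjusted p = 0.954).

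Brca1 (chromosome 11, 101488761 to 101551955), the ubiquitin ligase subunit that promotes end resection, stood at 30.1, 16.0 and 27.5 CPM in WT 1 to 3 and at 35.1, 27.5 and 39.7 CPM in KO 1 to 3. KO 2 (27.47 CPM) lay just below WT 3 (27.51 CPM), so the groups overlapped. The log2 fold change was 0.47 ± 0.26 (95% interval -0.15 to 1.09, edgeR adjusted p = 0.355), and 0.24 ± 0.17 without WT 2.

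Brca2 (chromosome 5, 150522297 to 150570147), which promotes filament assembly on single strands, stood at 38.8, 27.97 and 34.8 CPM in WT 1 to 3 and at 38.9, 35.0 and 42.7 CPM in KO 1 to 3. WT 1 and KO 1 were nearly equal. Its log2 fold change was 0.20 ± 0.14 (95% interval -0.14 to 0.53, edgeR adjusted p = 0.463), and 0.08 ± 0.11 without WT 2 and 0.31 ± 0.14 without WT 1. Its exons share 41 bases with the antisense gene Gm42529, which was not among the tested genes.

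Rad54l (chromosome 4, 116094261 to 116123700), the gene of RAD54, varied most among WT brains, 2.15 times from lowest to highest. It stood at 16.2, 7.52 and 13.0 CPM in WT 1 to 3 and at 17.2, 12.9 and 17.3 CPM in KO 1 to 3. The log2 fold change of 0.37 ± 0.29 (95% interval -0.32 to 1.06, edgeR adjusted p = 0.506) became 0.11 ± 0.18 without WT 2 and 0.62 ± 0.28 without WT 1. In GENCODE, 1184 exon bases of Rad54l overlap Lrrc41 on the opposite strand, and the strand setting of the counting is not given in the sources used here. Lrrc41 had means of 67.7 CPM in WT and 72.2 CPM in KO (0.09 ± 0.06, adjusted p = 0.421), and its share in the Rad54l count was not tested.

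**Figure D3:**
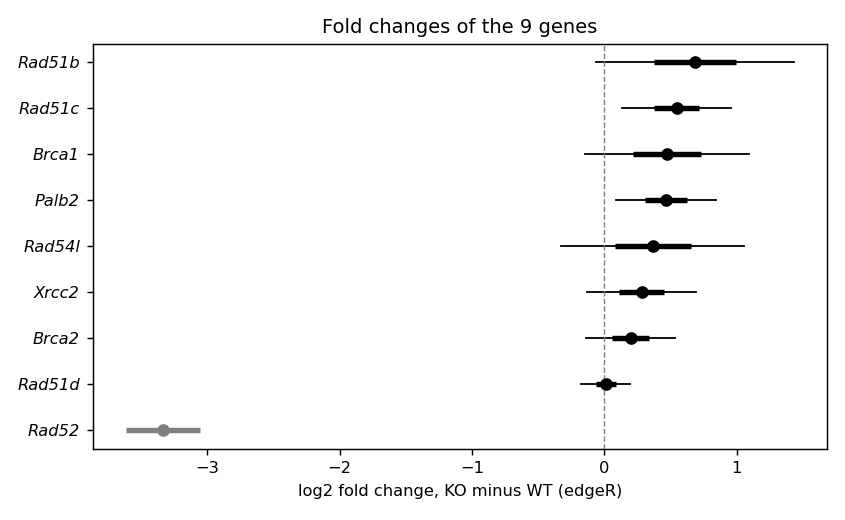
Log2 fold change of KO minus WT from edgeR for the 9 genes, with thick bars of 1 SE and thin lines of the 95% interval (none for Rad52, in grey, which was selected on this value). Rad52 lies at -3.33 and the other 8 between 0.01 (Rad51d) and 0.68 (Rad51b), with the interval above 0 for Rad51c and Palb2 before adjustment over all genes.

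Across the brains, 7 of the 9 genes had their low points in the same libraries. Rad51b, Rad51c, Xrcc2, Rad54l, Brca1, Palb2 and Brca2 were each lowest in WT 2 of all 6 libraries, and each had its lowest KO value in KO 2. Rad52 was also lowest in KO 2 among KO brains, but its lowest WT brain was WT 3, and Rad51d was lowest in WT 1 and KO 3. WT 2 reached 0.514 (Rad54l) to 0.843 (Palb2) of the mean of WT 1 and WT 3 in these 7 genes, against 0.986 for Rad52 and 1.04 for Rad51d. WT 2 was also the least deeply sequenced library, and it had the highest neuronal sum of all 6 (8627 CPM) and the highest meningeal and mesenchymal sum of the WT brains (2706 CPM).

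Markers of dividing cells had the same low points. In mean log2 CPM, so had the neural progenitor markers and each further list of repair genes described below. The 59 further genes of homologous recombination stood at 4.34, 3.92 and 4.25 in WT 1 to 3 and at 4.38, 4.19 and 4.42 in KO 1 to 3. The mean log2 CPM of 24 proliferation genes, such as Mki67, Top2a and the Mcm genes, was 5.63, 4.72 and 5.45 in WT 1 to 3 and 5.74, 5.42 and 5.86 in KO 1 to 3. The summed level of these 24 genes was 1037 CPM in WT 2 and between 1701 and 2266 CPM in the other 5 libraries. None of the 24 was called by edgeR (1 higher at an unadjusted p below 0.05, and DESeq2 called 0). The shares over all genes were 1.0%, 19.6% and 8.87%. Each of the 24 had a fold change above 1, and their median log2 fold change of 0.35 became 0.15 without WT 2 and 0.55 without WT 1. Neuronal markers went the other way, with negative fold changes in 9 of 10, a median of -0.43 and 0 calls (5 lower at an unadjusted p below 0.05). Neural progenitor markers had a median of 0.08 over 10 genes, with 0 calls. Their mean log2 CPM was 7.04, 6.35 and 6.89 in WT 1 to 3 and 6.79, 6.70 and 6.98 in KO 1 to 3. Microglial markers were positive in 10 of 10 (median 0.89), with 2 called higher by edgeR, and endothelial markers in 8 of 8 (median 0.42), with 0 called. The part of these cell types in the levels of the 7 genes was not tested.

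**Figure D4:**
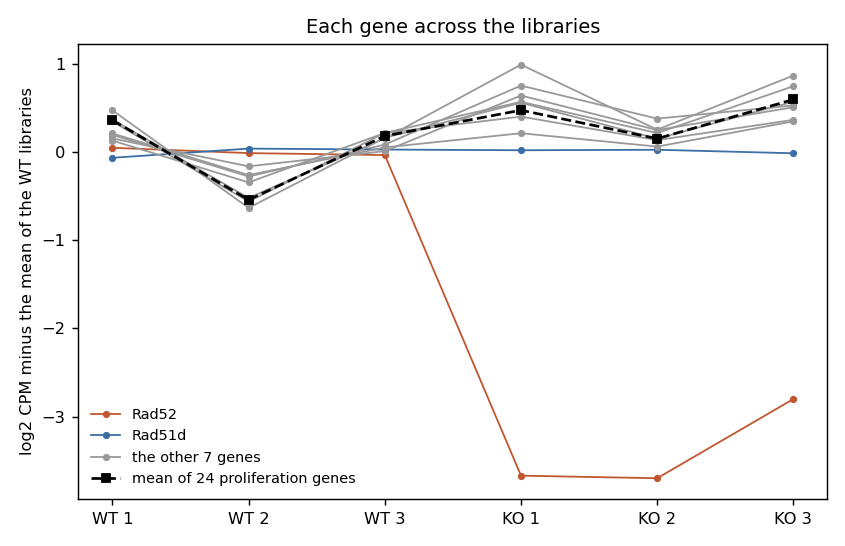
Log2 CPM of each gene in each library minus its mean over the WT libraries, with the mean of 24 proliferation genes as a dashed black line. The 7 grey genes and the proliferation genes dip in WT 2 and again in KO 2, Rad51d (blue) stays near 0, and Rad52 (orange) is low in the 3 KO libraries.

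The other genes of double-strand break repair held no call by edgeR, which called 1.0% of all 15848 tested genes. At that share, lists this short would hold few calls or none. Of 59 further genes of homologous recombination, all tested, 0 were called (7 higher and 4 lower at an unadjusted p below 0.05), 43 log2 fold changes were positive, and their median was 0.13, or 0.02 without WT 2. Over all 15848 tested genes, 7909 were positive and 3106 had an unadjusted p below 0.05 (19.6%), so the 11 of 59 were close to the background. DESeq2 called 2 higher and 2 lower, a smaller share than its 8.87% over all genes. The 2 genes with the smallest p were Babam2, a subunit of the BRCA1-A complex (18.6 to 25.3 CPM, log2 fold change 0.44 ± 0.09, edgeR adjusted p = 0.0909, DESeq2 adjusted p = 0.00333), and Rmi1, which dissolves recombination intermediates with BLM (14.2 to 10.96 CPM, -0.37 ± 0.09, edgeR adjusted p = 0.109, DESeq2 adjusted p = 0.00321). The other 2 DESeq2 calls were Smc5, of the SMC5-SMC6 complex (0.30 ± 0.09 by DESeq2), and Swi5, a recombination accessory factor (-0.23 ± 0.07 by DESeq2).

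Single-strand annealing, the pathway closest to RAD52, shares genes with end joining by DNA polymerase theta. Of 9 such genes, 0 were called by edgeR (1 higher and 1 lower at an unadjusted p below 0.05, DESeq2 1). The shares over all genes were 1.0%, 19.6% and 8.87%. The median log2 fold change was 0.12, and between 0.05 (without WT 2) and 0.22 (without WT 1) with 1 library left out. Ercc4, the nuclease subunit that trims the flaps left by annealing, went from 29.3 to 23.3 CPM (-0.33 ± 0.07, edgeR adjusted p = 0.101, DESeq2 adjusted p = 0.00602).

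Classical end joining competes with recombination for the same breaks. Of 22 genes found out of 24 listed, 0 were called by edgeR (5 higher and 1 lower at an unadjusted p below 0.05, DESeq2 2). The shares over all genes were again 1.0%, 19.6% and 8.87%. The median log2 fold change was 0.08, and between 0.06 (without KO 3) and 0.13 (without KO 2) with 1 library left out. Lig4, the ligase of this pathway, went from 28.1 to 22.2 CPM (-0.34 ± 0.08, edgeR adjusted p = 0.109).

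The Fanconi anaemia genes, which hand crosslinked DNA to recombination, likewise held 0 edgeR calls among 21 (3 higher and 3 lower at an unadjusted p below 0.05, DESeq2 2). The shares over all genes were the same 1.0%, 19.6% and 8.87%. Slx4, among the genes lower at an unadjusted p below 0.05, and Brip1 were counted here and among the further recombination genes. The median log2 fold change was 0.08, and 0.03 without WT 1, 0.0033 without WT 2 and 0.02 without KO 3. Fancm, a DNA translocase, went from 35.3 to 29.1 CPM (-0.28 ± 0.07, edgeR adjusted p = 0.134), and Ube2t, which conjugates ubiquitin to FANCD2, from 3.60 to 5.91 CPM (0.71 ± 0.21, adjusted p = 0.155).

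**Figure D5:**
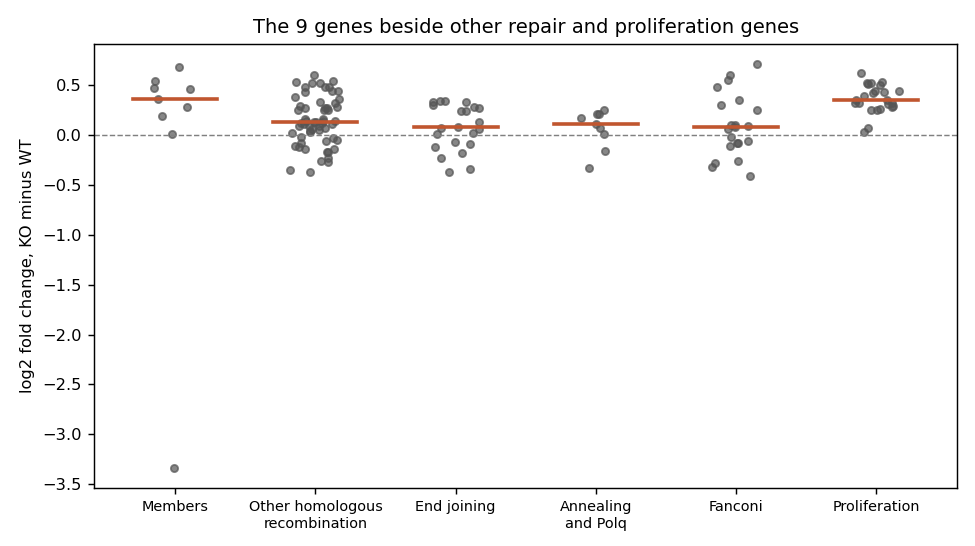
Log2 fold change of KO minus WT for each gene (points, spread sideways for legibility) of the 9 genes, 4 further lists of repair genes and the proliferation genes, with the median of each as a line. Rad52, at -3.33, lies far below all other points, which range from -0.41 to 0.71.

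RSEM also reports a transcript length for each gene, weighted by the estimated share of its transcripts, a readout that the choice of these genes did not use. Rad52, with 5 listed transcripts, had a length of 1623 ± 5.67 bases in WT and 1631 ± 6.51 bases in KO (SD, n = 3 each), so the estimated mix of its transcripts was of similar length in both groups. The KO lengths rested on 46, 36 and 60 read pairs in KO 1 to 3. A similar mean length does not show that the shares of the transcripts were the same. The effective length, which subtracts the fragment size, was 1406 ± 7.71 and 1411 ± 9.16 bases (exact two-sided permutation test over libraries, p = 0.40, adjusted p = 0.514 over the 9 genes). Rad51d, with 9 listed transcripts, was the one gene whose lengths did not overlap. They were 5071, 5292 and 5266 bases in WT 1 to 3 and 5021, 4857 and 5018 bases in KO 1 to 3. Its effective length differed by -248 bases, KO minus WT (exact permutation p = 0.10, the smallest that 3 against 3 allows, adjusted p = 0.514). Brca1 and Xrcc2 have 1 transcript each, and Rad51c had 1 length in all libraries, so for these 3 genes the effective length only follows the fragment size.

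The 5 genes whose log2 CPM over the 6 libraries was most like that of Rad52, by Pearson's r among tested genes averaging 1 CPM or more, were Cept1 (r = 0.9993), Mrpl15 (0.9991), Nsun5 (0.998), Eef1g (0.998) and Taz (0.997). Since WT and KO lie far apart in each, r mostly measures that gap, and it is given as a description. Cept1, an enzyme of phospholipid synthesis, stood at 20.3, 19.3 and 20.5 CPM in WT 1 to 3 and at 6.10, 6.04 and 7.84 CPM in KO 1 to 3. Nsun5, a ribosomal RNA methyltransferase, stood at 13.7, 13.8 and 14.1 CPM in WT and at 1.29, 1.35 and 1.96 CPM in KO. The size of the gap differed, from a KO level of 181.9 against 371.8 CPM in Eef1g, a subunit of translation elongation factor 1, to 1.53 against 13.8 CPM in Nsun5.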

How the data were processed

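Per the file headers, the deposited RSEM tables give each gene an expected count, a TPM, an FPKM (deposited by the authors, not used here) and transcript lengths in bases. Per the submitters' processing notes, the tools were STAR 2.5.3a, RSEM 1.2.28, Trimmomatic and FastQC and the builds mm10 and GRCm38, and no source used here gives their settings. The deposited expected counts were rounded and tested with edgeR 4.0.16 (filterByExpr, TMM, robust quasi-likelihood F test, two-sided, Benjamini-Hochberg over all 15848 tested genes, called below 0.05), and the test was checked on simulated data. SE is the fold change divided by the square root of F. Log2 CPM used a prior count of 2. TPM, as deposited by the authors, compares genes per length and keeps no depth. Alternatives were DESeq2 1.42.0, limma 3.58.1, other scalings, filters and samples. The genes and lists were chosen with earlier results of these data known. Named genes were the 9 genes, the nearest tested genes beside Rad52, the 5 most like it, and in each list called genes or, with none, the 2 with the smallest p. Some genes that this rule names are not reported here. Others named were chosen after their values were seen. Coordinates come from RefSeq (GRCm38.p6), exon overlaps from GENCODE M21. Library pairs of a group differed far beyond sampling noise (chi-square per degree of freedom 45.5 to 177), and none was a repeat.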

Additional observations from a re-analysis of the deposited data

How the results depend on the processing

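Under all 18 alternatives, Rad52 kept a negative fold change and none of the other 8 genes was called. The log2 fold change of Rad52 was -2.71 by limma on log2(TPM + 1), where the pseudocount of 1 is close to the KO values, and otherwise between -3.69 and -3.18. It was -3.68 without KO 3. Of the other 8 genes, 7 kept a positive fold change throughout, while Rad51d ranged from -0.02 (without WT 1) to 0.08. The number of genes called among all tested, 159, was 1438 by DESeq2, 247 by limma with a pseudocount of 1 on TPM, 241 with one of 0.1, 66 with the replicate block, 0 with WT 1, WT 2, KO 1 and KO 2 alone (1546 at an unadjusted p below 0.05), and between 36 (without KO 1) and 82 (without WT 2) when 1 library was left out. With library totals as the only scaling, 123 genes were higher and 63 lower, against 81 and 78. The replicate numbers do not pair the brains by the labels, and the correlations of same-numbered deviations were 0.121, 0.173 and 0.016. The block called none of the 8 genes (6 at an unadjusted p below 0.05). The cause of these differences was not tested. Low counts limit Rad52 in KO (36 to 60 read pairs) and Rad51b.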
